A study of Rattus norvegicus with 23 samples.

Results

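The enzymes described here make and use glutathione or remove reactive oxygen species, together with Nfe2l2 and a few of the genes it drives. Their probe sets were chosen by gene symbol: the glutathione S-transferases of the alpha, mu, pi, theta, omega and zeta classes, the microsomal glutathione S-transferases, the glutathione peroxidases, the peroxiredoxins, every symbol beginning with Txn, the 3 superoxide dismutases, and Cat, Gclc, Gclm, Gss, Gsr, Hmox1, Hmox2, Nqo1, Nfe2l2 and Srxn1. Among the 29211 probe sets of the array, 15307 carried 1 gene symbol and 61 of those, with 59 symbols, met the rule. Of the 61, 59 probe sets with 57 symbols reached a signal of 40 on at least 4 arrays and were tested along with 13339 probe sets in all. The remaining pair, Gpx5 and Gpx6, known mainly from the epididymis and the olfactory tissue, gave signals of 18 to 34 and of 28 to 44 over all arrays. Prdx1 and Gsta4 had 2 probe sets each, and their probe set numbers are given wherever they differ.

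The study asked whether raising FKBP1b, a protein that steadies calcium release channels inside neurons, changes the hippocampal transcriptome of aging male F344 rats. Dorsal hippocampal RNA of 23 animals was hybridized to Rat Gene 1.0 ST arrays, 1 for each animal. The LT (long-term, n = 6) and ST (short-term, n = 6) rats were aged and received an AAV2/9 vector carrying rat Fkbp1b under a CaMKII promoter, which is active mainly in excitatory neurons, in the CA1 field on both sides. The aged control rats (AC, n = 5 analysed here) received the same vector carrying eGFP at a higher titer, and the young controls (YC, n = 6) were, by the study's methods, not injected, although the labels call their treatment sham. The labels put all aged rats at 21 months and YC rats at 5 to 6 months. The sources disagree on the age at injection: the labels give 12 months for LT, 18 for ST and 18 for AC, with exposures of 9, 3 and 3 months, whereas the design text gives 13, 19 and 13 months. Age, surgery and vector thus differ together between AC and YC rats, transgene and titer differ together between LT or ST and AC rats, along with injection age and exposure time for LT by the labels and for ST by the design text, and the LT and ST animals on the arrays had been picked for FKBP1b levels above their group's median.

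Glutathione is a small peptide that serves as the main thiol buffer of the cell. Gclc, Gclm and Gss build it, glutathione peroxidases spend it to remove peroxides, Gsr recovers it from its oxidized form, and glutathione S-transferases attach it to reactive electrophiles. Peroxiredoxins, kept active by thioredoxins and thioredoxin reductases, form a parallel route for peroxides, superoxide dismutases turn superoxide into hydrogen peroxide, and the transcription factor Nfe2l2 (NRF2) drives many of these genes through antioxidant response elements. In brain, astrocytes hold much of this capacity and supply neurons with glutathione precursors.

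Several facts of the whole series bear on what follows. Fkbp1b signal was 843 to 1217 on LT arrays and 427 to 881 on ST arrays, against 364 to 458 on AC arrays and 353 to 411 on YC arrays. By the annotation used here this is probe set 10940524. The study states that the array lacks one for FKBP1b, and it measured FKBP1b by qRT-PCR. The pan-neuronal gene Snap25 gave 10883 to 11153 on LT arrays, 10972 to 11617 on ST, 10548 to 11548 on AC and 11290 to 11560 on YC. In the same order, the excitatory neuron gene Neurod6 gave 1973 to 2409, 2424 to 2839, 2163 to 2790 and 2301 to 2870. Prox1, a gene of dentate granule neurons, gave 632 to 917, 764 to 929, 333 to 950 and 640 to 911. LT and ST arrays thus did not overlap for Neurod6, nor LT and YC arrays for Snap25. The part of such differences in what follows was not tested. RNA integrity numbers were 8.9 to 9.5 in LT, 9.4 to 9.7 in ST, 8.9 to 9.8 in AC and 9.4 to 9.5 in YC. A score over 14 genes of the choroid plexus, the secretory tissue beside the hippocampus (mean log2 signal relative to all arrays), was 2.62 on LT replicate 2, 2.67 on LT replicate 5, 2.60 on AC replicate 3 and 3.15 on AC replicate 4, called the 4 choroid-rich arrays here, and at most 0.53 on any other array. Ttr, the most typical gene of that tissue, gave 1352 to 14792 on LT arrays, 116 to 493 on ST arrays, 363 to 16411 on AC arrays and 482 to 1113 on YC arrays. AC replicate 5 had the highest microglia score (0.96) and the lowest oligodendrocyte score (-0.50). The median within-group SD of a member's log2 signal was 0.078 in LT, 0.069 in ST, 0.12 in AC and 0.071 in YC. In tissue RNA, fewer cells of a type and less RNA per cell cannot be told apart.

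The aging comparison showed a small set of these enzymes higher in aged controls and a pair lower. Comparing AC with YC arrays by limma, 8 of 59 probe sets passed an adjusted p of 0.05 (Benjamini-Hochberg over all 13339), or 13.6%, where 9.75% of all tested probe sets did. Those higher in AC numbered 6, or 10.2% against 5.56% of all, and belonged to Mgst1, Mgst2, Prdx1 (both probe sets), Prdx6 and Txn1. Those lower in AC numbered 2, or 3.39% against 4.18% of all, and belonged to Gpx7 and Txndc2. At an unadjusted p of 0.05 the members numbered 24, or 40.7% against 27.4%. The median member differed by 0.032 log2 units, against -0.006 over all tested probe sets, and 35 of 59 members were above 0. The 95% interval of a member's difference had a median half-width of 0.12, so differences of that size or less could not be resolved for most of them.

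**Figure D1:**
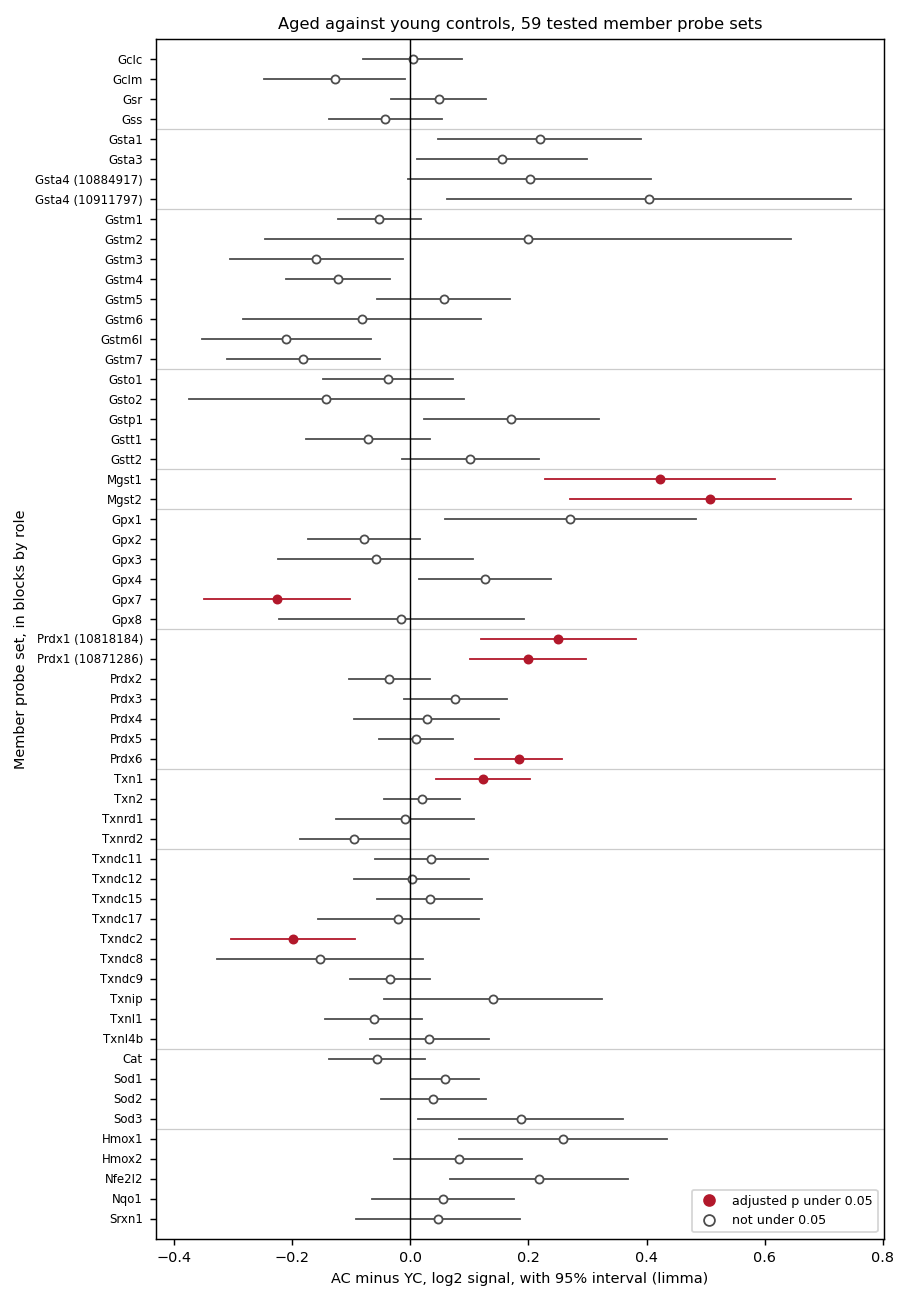
Difference in log2 signal between AC and YC arrays (horizontal axis, AC minus YC, with 95% interval from limma) for the 59 tested member probe sets, in blocks by role. The 8 filled points passed an adjusted p of 0.05 and run from -0.23 for Gpx7 to 0.51 for Mgst2.

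Both microsomal glutathione S-transferases rose in AC rats. Mgst1, a membrane enzyme that conjugates and reduces lipid peroxides, had signals of 454 to 547 (median 532.5) on LT arrays, 399 to 534 (median 469.5) on ST arrays, 449, 561, 498, 558 and 379 on AC arrays 1 to 5, and 320 to 424 (median 355) on YC arrays (probe set 10859392). All AC arrays but replicate 5 lay above every YC array. The difference of AC from YC was 0.42 on the log2 scale (SE 0.094, adjusted p = 0.0086), and it was 0.34 (adjusted p = 0.095) without the 4 choroid-rich arrays. Mgst2, which can conjugate leukotriene A4 with glutathione, had signals of 40 to 51 (median 45) on LT arrays, 37 to 58 (median 45) on ST arrays, 64, 49, 68, 45 and 54 on AC arrays 1 to 5, and 33 to 48 (median 38.5) on YC arrays, close to the minimum of 40 used here. It was 0.51 higher in AC (SE 0.12, adjusted p = 0.010) and 0.51 (adjusted p = 0.034) without those 4 arrays. AC and YC arrays overlapped for Mgst2, since YC reached 48 and AC replicate 4 gave 45.

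Among the 7 peroxiredoxin probe sets, 3 rose in AC, none fell, and 4 did not pass. Prdx6, the peroxiredoxin that uses glutathione and also acts on phospholipids, had signals of 1194 to 1297 (median 1246) on LT arrays, 1172 to 1247 (median 1203.5) on ST arrays, 1192, 1203, 1224, 1346 and 1369 on AC arrays 1 to 5, and 1090 to 1137 (median 1117.5) on YC arrays. Every AC array lay above every YC array, by 0.18 on average (SE 0.035, adjusted p = 0.0037). Prdx1, an abundant cytosolic peroxiredoxin, gave 827, 807, 899, 1076 and 781 on AC arrays 1 to 5, against 687 to 776 (median 739.5) on YC arrays at probe set 10818184 and 841, 807, 862, 949 and 771 on AC arrays 1 to 5, against 703 to 772 (median 728.5) on YC arrays at probe set 10871286. At the first the AC arrays lay above all YC arrays; at the second AC replicate 5, at 771, lay just under the highest YC array, at 772. The differences were 0.25 (SE 0.063, adjusted p = 0.017) and 0.20 (SE 0.047, adjusted p = 0.013). Without the 4 choroid-rich arrays they were 0.14 and 0.13 (adjusted p = 0.10 for each), while Prdx6 kept 0.17 (adjusted p = 0.032). Prdx2, an abundant cytosolic form, was -0.036 from YC (95% interval -0.10 to 0.033, adjusted p = 0.51). The mitochondrial Prdx3 and the endoplasmic reticulum Prdx4 were 0.076 (adjusted p = 0.25) and 0.028 (adjusted p = 0.80) from YC.

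Txn1, the cytosolic thioredoxin that reduces peroxiredoxins, was the only 1 of 4 thioredoxin and reductase probe sets to pass. Its signals were 1359 to 1595 (median 1491.5) on LT arrays, 1446 to 1547 (median 1516) on ST arrays, 1609, 1499, 1505, 1679 and 1587 on AC arrays 1 to 5, and 1347 to 1510 (median 1454) on YC arrays. AC and YC arrays overlapped, and the difference of 0.12 (SE 0.039, adjusted p = 0.047) lay at the threshold: it no longer passed when any 1 of 17 of the 23 arrays was left out, with adjusted p up to 0.13. The mitochondrial Txn2 and both reductases, Txnrd1 and Txnrd2, did not pass.

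The members lower in AC rats had other roles. Gpx7, a peroxidase of the endoplasmic reticulum with little use of glutathione, had signals of 156 to 190 (median 168.5) on LT arrays, 159 to 182 (median 164.5) on ST arrays, 165, 135, 139, 171 and 140 on AC arrays 1 to 5, and 163 to 184 (median 176.5) on YC arrays. AC replicates 2, 3 and 5 lay below every YC array and replicates 1 and 4 within their range, a difference of -0.23 (SE 0.059, adjusted p = 0.022). It kept -0.26 (adjusted p = 0.040) without the 4 choroid-rich arrays, and lost the call without AC replicate 2 or AC replicate 3, with adjusted p up to 0.062. Txndc2, a thioredoxin-domain gene known from sperm, gave 234 to 274 (median 256.5) on LT arrays, 206 to 241 (median 222.5) on ST arrays, 219, 216, 224, 215 and 255 on AC arrays 1 to 5, and 241 to 271 (median 259) on YC arrays. All AC arrays except replicate 5 were under every YC array, and the difference was -0.20 (SE 0.051, adjusted p = 0.019), or -0.17 (adjusted p = 0.12) without those 4 arrays.

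**Figure D2:**
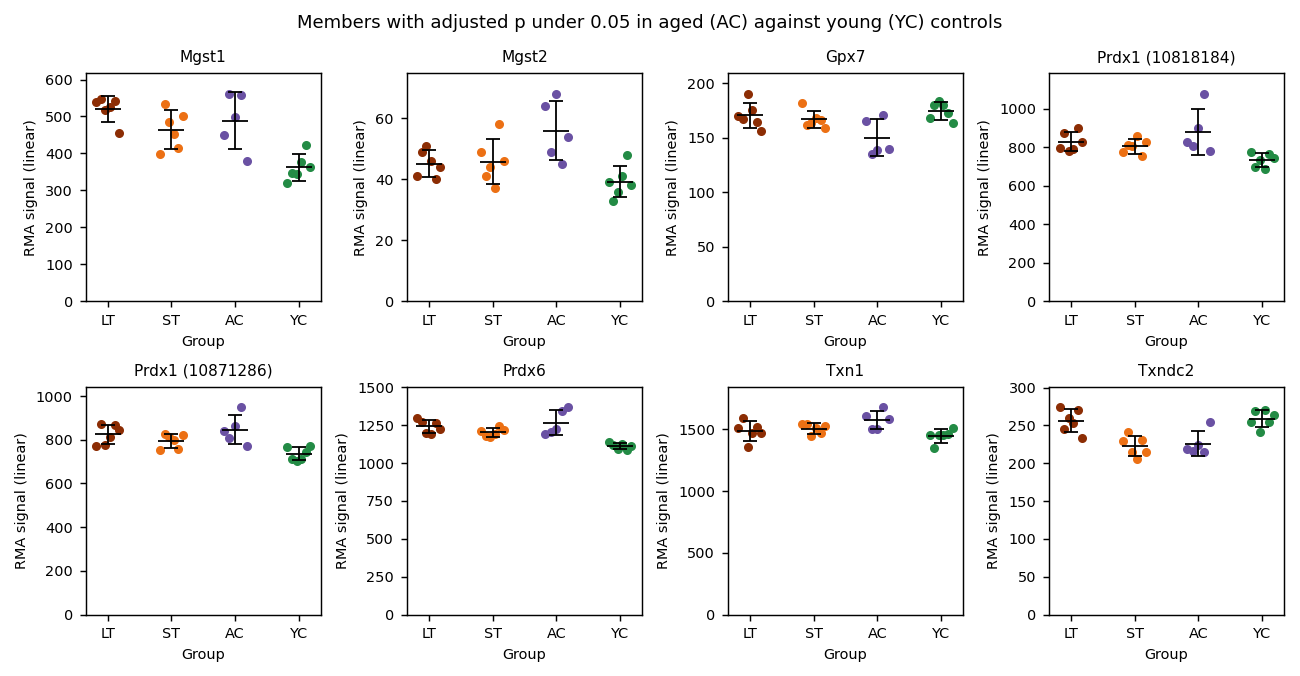
RMA signal (linear scale from 0, vertical axis) of the 8 probe sets that passed between AC and YC, on each array of the LT, ST, AC and YC groups. Each point is 1 array, and the bars show the group mean ± SD. For Prdx6 the AC points, 1192 to 1369, lie above the YC points, 1090 to 1137, whereas for Mgst2 the groups overlap.

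Because many of these genes are known targets of Nfe2l2, their promoters were searched for TGACNNNGC, the core of the antioxidant response element, on both strands. The RefSeq table (build GRCr8, 250 bases before and 50 after each start site) held promoters of 49 of the 59 member genes. A match stood in 17 of those genes (34.7%), and by promoter in 17 of 56 (30.4%), against 4038 of 33469 (12.1%) promoters in the table. The genes with a match were Gclm, Gpx2, Gsta1, Gsta3, Gstm5, Gstm7, Gstp1, Hmox2, Nfe2l2, Prdx1, Prdx4, Prdx5, Sod2, Txndc11, Txndc17, Txnl4b and Txnrd1. Of the genes that passed in AC vs YC, Prdx1 had a match and Mgst1, Txn1, Gpx7 and Txndc2 had none in this window, and Mgst2 and Prdx6 were not among the genes searched. A match describes the letters only. Printed here, 5′ to 3′ on the strand of the gene, are Prdx1 and Gstp1, which passed in a comparison and carry the identical site TGACTCAGC, Gsta1, whose match lies after the start site, and Mgst1, whose window held no match. Capitals mark the match, which in Prdx1 reads TGACTCAGC on the opposite strand.
Prdx1 (chr5:135383656-135383955, plus strand): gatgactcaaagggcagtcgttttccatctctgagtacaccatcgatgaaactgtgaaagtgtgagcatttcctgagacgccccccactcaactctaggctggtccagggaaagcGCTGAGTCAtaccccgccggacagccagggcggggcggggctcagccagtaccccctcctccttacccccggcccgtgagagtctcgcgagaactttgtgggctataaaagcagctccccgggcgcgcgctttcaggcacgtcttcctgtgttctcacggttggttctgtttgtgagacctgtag
Gstp1 (chr1:210769656-210769955, minus strand): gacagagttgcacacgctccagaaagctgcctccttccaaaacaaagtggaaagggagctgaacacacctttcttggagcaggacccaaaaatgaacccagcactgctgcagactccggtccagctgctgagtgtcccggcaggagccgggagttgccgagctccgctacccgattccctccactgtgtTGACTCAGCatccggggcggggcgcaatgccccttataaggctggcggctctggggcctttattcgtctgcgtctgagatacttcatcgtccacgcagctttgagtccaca
Gsta1 (chr9:31216483-31216782, minus strand): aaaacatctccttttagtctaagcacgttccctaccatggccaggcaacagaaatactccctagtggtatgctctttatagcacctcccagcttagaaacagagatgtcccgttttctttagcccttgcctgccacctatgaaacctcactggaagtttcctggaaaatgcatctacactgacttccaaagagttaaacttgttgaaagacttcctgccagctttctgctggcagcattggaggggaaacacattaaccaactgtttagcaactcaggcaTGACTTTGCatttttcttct
Mgst1 (chr4:172760680-172760979, plus strand): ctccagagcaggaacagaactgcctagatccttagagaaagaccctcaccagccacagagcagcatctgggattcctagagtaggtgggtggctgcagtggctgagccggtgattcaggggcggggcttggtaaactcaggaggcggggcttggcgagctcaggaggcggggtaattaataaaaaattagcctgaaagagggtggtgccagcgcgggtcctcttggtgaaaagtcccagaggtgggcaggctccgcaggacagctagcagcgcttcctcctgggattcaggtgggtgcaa
The matches began 135 bases before the start site in Prdx1 and 61 before it in Gstp1, and 30 after it in Gsta1. Both TGACTCAGC sites also contain the shorter AP-1 type motif TGANTCA, so the letters do not separate the 2 motifs.

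Nfe2l2, Hmox1, Hmox2, Nqo1 and Srxn1 were above 0 in AC vs YC without passing, while Gclm and Txnrd1, which Nfe2l2 is also known to drive, were -0.13 (adjusted p = 0.15) and -0.009 (adjusted p = 0.94). Nfe2l2 gave 457 to 675 (median 571) on LT arrays, 501 to 579 (median 551.5) on ST arrays, 516, 552, 582, 615 and 584 on AC arrays 1 to 5, and 474 to 504 (median 488.5) on YC arrays. Every AC array lay above every YC array, with a difference of 0.22 (95% interval 0.068 to 0.37, adjusted p = 0.058). Hmox1, which opens the heme ring, gave 74 to 112 (median 91.5) on LT arrays, 75 to 91 (median 83) on ST arrays, 92, 82, 108, 93 and 99 on AC arrays 1 to 5, and 68 to 87 (median 80.5) on YC arrays, and its difference from YC was 0.26 (95% interval 0.082 to 0.44, adjusted p = 0.057). Hmox2, Nqo1 and Srxn1, the enzyme that repairs overoxidized peroxiredoxins, were 0.082, 0.055 and 0.047 from YC, and these 5 genes stayed above 0 with array medians made equal and with quantile normalization.

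Glutathione synthesis and recycling showed no called change. Gclc, the catalytic subunit of the rate-limiting ligase, gave 788 to 872 (median 806.5) on LT arrays, 806 to 888 (median 857) on ST arrays, 817, 864, 857, 776 and 790 on AC arrays 1 to 5, and 750 to 863 (median 823.5) on YC arrays, with the groups overlapping throughout and a difference of 0.004 between AC and YC (95% interval -0.08 to 0.088, adjusted p = 0.96). Of the others, with Gclm, its modifier subunit, already given, Gss was -0.042 from YC (adjusted p = 0.59) and Gsr 0.048 (adjusted p = 0.44).

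No cytosolic glutathione S-transferase passed between AC and YC, and the classes differed in sign. All 4 alpha-class probe sets were above 0, by 0.16 to 0.41. In the mu class 6 of 8 probe sets were below 0, with a range of -0.21 to 0.20. The same counts held with array medians made equal and with quantile normalization. Gstm6l, a mu-class gene, gave 508 to 693 (median 552) on LT arrays, 511 to 643 (median 564) on ST arrays, 529, 563, 472, 490 and 472 on AC arrays 1 to 5, and 569 to 601 (median 579.5) on YC arrays. All AC arrays lay below all YC arrays, but the difference of -0.21 missed the threshold (95% interval -0.35 to -0.067, adjusted p = 0.055). Gstm4 was -0.12 (adjusted p = 0.069), Gstm3 -0.16 (adjusted p = 0.15) and Gstm1, an astrocytic transferase, -0.052 (adjusted p = 0.34) from YC. Mu-class genes lie in a cluster of close copies, and whether probes of one also bind transcripts of another was not examined, so their single values are uncertain. Gsto1, an omega-class transferase that also reduces dehydroascorbate, was -0.038 from YC (adjusted p = 0.69).

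In all, 4 members had AC and YC arrays that did not overlap (Gstm6l, Nfe2l2, Prdx1 at probe set 10818184 and Prdx6), or 6.78% against 5.09% of all tested probe sets. An F test over the 4 groups called 7 members, or 11.9% against 5.46%: Prdx6 (adjusted p = 0.012), Mgst1 (0.0065), Txndc2 (0.012), Gstp1 (0.028), Sod3 (0.036), Prdx1 at probe set 10871286 (0.039) and Mgst2 (0.048).

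**Figure D3:**
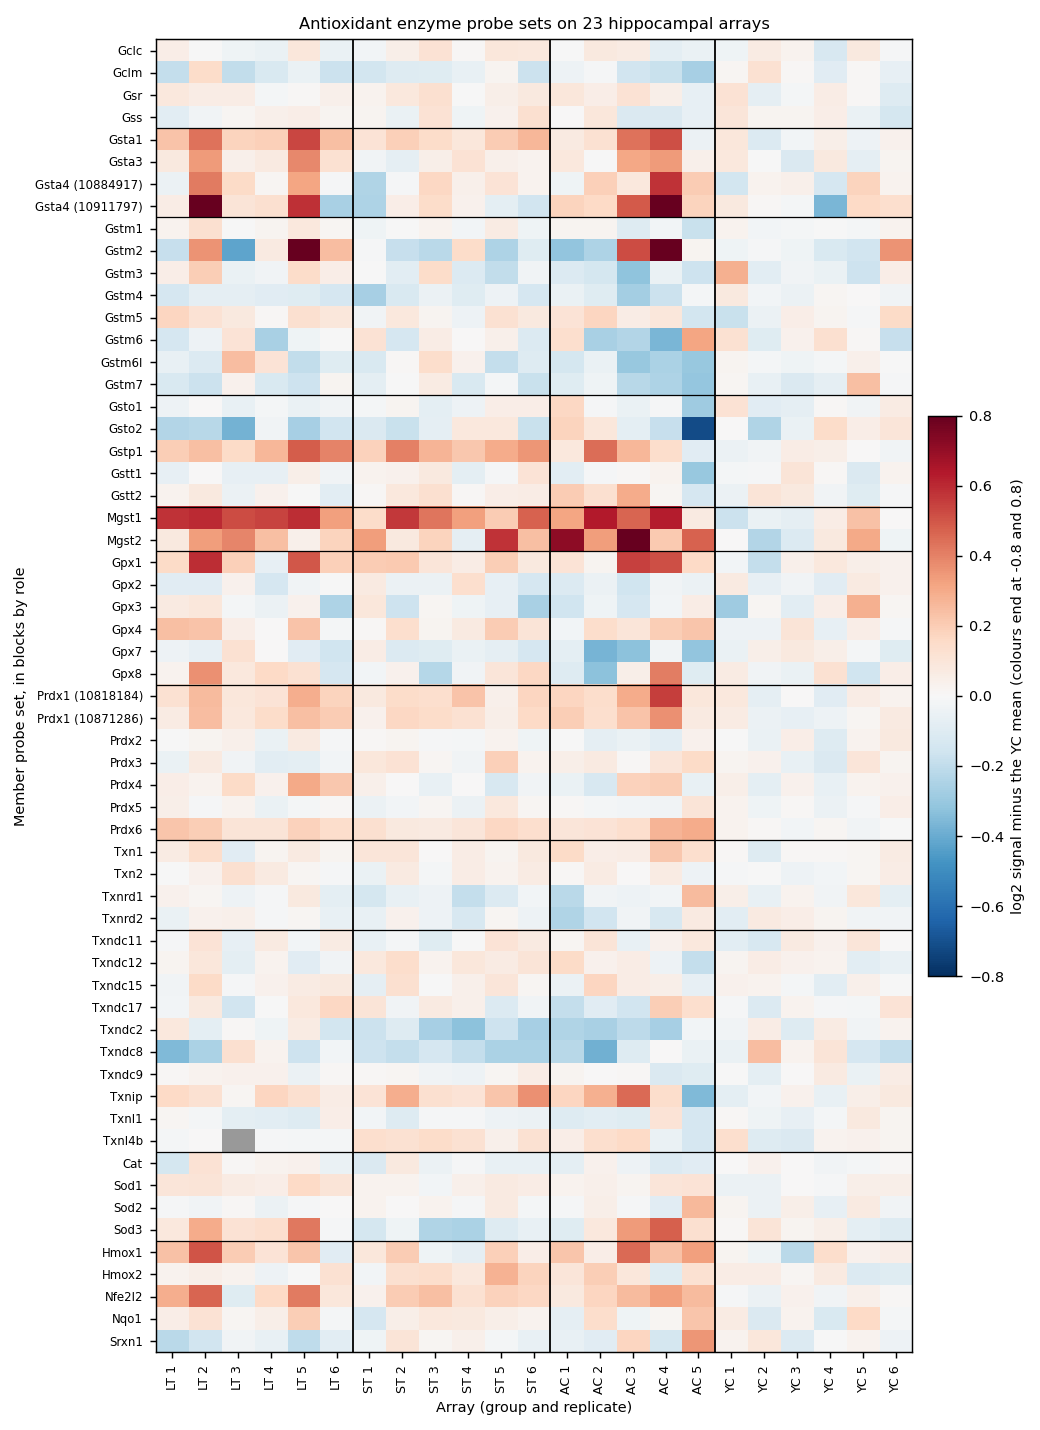
Log2 signal minus the YC mean (colour, ends at -0.8 and 0.8) of the 59 tested member probe sets (rows, in blocks by role) on the 23 arrays (columns, LT, ST, AC and YC). Mgst1, Gstp1, Prdx6 and Nfe2l2 are above the YC mean on most aged arrays, while Gsta4, Gsta1, Gpx1 and Sod3 stand out on LT 2, LT 5, AC 3 and AC 4; the grey cell is a blank value.

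A second pattern followed single arrays within groups, and some of its probe sets, such as both of Prdx1, were also called between groups. On LT replicates 2 and 5 and AC replicates 3 and 4, the arrays with a choroid plexus score over 1, 7 member probe sets were higher than on every other array, or 11.9% of the members against 2.01% of all tested probe sets. They belonged to Gpx1, Gsta1, Gsta3, Gsta4 (probe set 10911797), Prdx1 (both) and Sod3, none of which is in the choroid plexus list. These arrays were singled out after their scores were seen, and the count has no test.

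Gsta4, the alpha-class transferase for the lipid peroxidation product 4-hydroxynonenal, showed this at 1 of its probe sets. At probe set 10911797 the 4 arrays gave 247 to 354 and the other 19 arrays 136 to 199. Within a group, the arrays of high score exceeded the others by 0.69 log2 units in LT and 0.58 in AC. The second Gsta4 probe set, 10884917, gave 115 to 162 on the 4 arrays and 92 to 125 on the others, which overlap. Between AC and YC the first probe set differed by 0.41 (95% interval 0.063 to 0.75, adjusted p = 0.12) over all arrays and by 0.17 (adjusted p = 0.36) without the 4.

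Gpx1, the main cytosolic glutathione peroxidase, gave 763 to 815 on the 4 arrays and 475 to 627 on the rest. The excess within a group was 0.43 log2 units in LT and 0.44 in AC. Gpx1 differed between AC and YC by 0.27 (adjusted p = 0.091), and by 0.097 (adjusted p = 0.39) without the 4 arrays. Gpx4, the peroxidase of membrane phospholipids, was not among the 7. It gave 936 to 1115 (median 1041) on LT arrays, 952 to 1086 (median 1002.5) on ST arrays, 931, 1043, 1009, 1082 and 1101 on AC arrays 1 to 5, and 904 to 1013 (median 928) on YC arrays, and it was 0.13 from YC in AC rats (adjusted p = 0.13).

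Sod3, the extracellular superoxide dismutase, gave 1597 to 1815 on the 4 arrays and 1091 to 1428 on the others. Its difference between AC and YC was 0.19 (adjusted p = 0.15) over all arrays and 0.039 (adjusted p = 0.75) without the 4. Gsta1 gave 1368 to 1464 on them and 938 to 1218 elsewhere, and Gsta3 gave 216 to 227 against 161 to 190. For Gsta1 the AC vs YC difference was 0.22 (adjusted p = 0.093) with the 4 arrays and 0.049 (adjusted p = 0.58) without them. In the fit without them Gsta1 passed in ST vs YC, in LT vs YC and in the F test over the groups, none of which it passed over all arrays. Gstm2, named here after its values were seen, reached 67 and 102 on LT replicates 2 and 5 and 75 and 106 on AC replicates 3 and 4, against 39 to 67 elsewhere. Mgst1, called higher in AC, exceeded the other arrays of its group on these 4 arrays by only 0.10 in LT and 0.21 in AC.

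**Figure D4:**
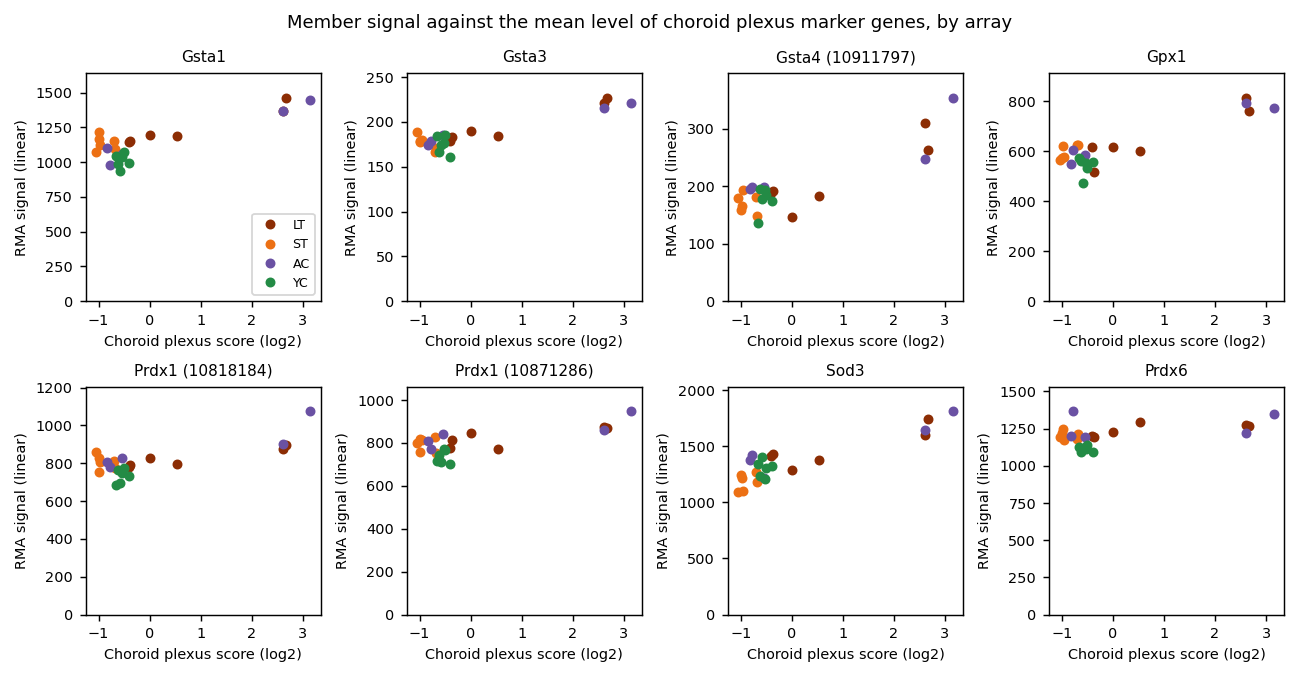
RMA signal (linear scale from 0, vertical axis) against the choroid plexus score of the array (mean log2 difference, horizontal axis) for the 7 probe sets highest on the 4 arrays of high score, and for Prdx6. Points are arrays coloured by group. The 2 LT and 2 AC arrays at scores of 2.60 to 3.15 lie above all others except for Prdx6.

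The choroid plexus list had 14 of its 15 genes tested, and its score ran from -0.41 to 2.67 in LT, -1.05 to -0.69 in ST, -0.83 to 3.15 in AC and -0.66 to -0.40 in YC rats. No listed gene passed between AC and YC or between ST or LT and AC, while the list's median difference was 1.40 for AC vs YC and -1.76 for ST vs AC. Meningeal and fibroblast genes scored 0.41 to 0.58 on these 4 arrays and 0.45 on AC replicate 5, and red blood cell genes scored 1.03 and 1.07 on AC replicates 3 and 4. With the choroid plexus score as a covariate, 7 members passed between AC and YC (11.9%, against 7.71% of all tested probe sets), all of the 8 save Txn1. Leaving the 4 arrays out left 3 members called, Gpx7, Mgst2 and Prdx6, in a comparison of 3 AC with 6 YC arrays, or 5.08% against 2.98% of all tested probe sets. Microglia genes differed too, and 12 of 14 were higher in AC than YC, and the score was -0.02 to 0.29 in LT, -0.06 to 0.39 in ST, -0.01 to 0.96 in AC and -0.35 to -0.25 in YC. Of endothelial and mural genes 7 of 13, of astrocyte genes 3 of 13 and of meningeal genes 3 of 12 were higher in AC, with 1 meningeal and 1 of 13 oligodendrocyte genes lower and no change called among 14 neuron and 6 red blood cell genes. Their part in the differences of the antioxidant genes was not tested.

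AC replicate 5 stood apart over the tested probe sets as a whole, and the members shared in this. It held the lowest or the highest value of all 23 arrays for 20 of 59 members (33.9%), as it did for 31.1% of all tested probe sets. Gstp1, the pi-class transferase, gave 993 on AC replicate 5, the lowest of all arrays, and its AC vs YC difference was 0.17 (adjusted p = 0.13) with that array and 0.24 (adjusted p = 0.025) without it. Txnip, which binds and inhibits thioredoxin, gave 556 there and 783 to 972 on the other AC arrays, and Gsto2 gave 169 there and 244 to 315; both are named here after their values were seen. Without AC replicate 5 the members called between AC and YC numbered 13 (22%, against 11.9% of all tested probe sets), among them Gstp1, Gsta1, Gstm4, Gstt2, Txnip and Txnrd2, with Txn1 lost. The same number passed without AC replicate 1 (14% of all tested probe sets did), with Gpx4, Gstm4, Gstm6l, Gstm7, Nfe2l2 and Sod3 gained.

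The effect of FKBP1b on these enzymes was addressed by setting LT and ST against AC arrays. No member passed in any of these comparisons. In LT vs AC 0 of 59 members passed by limma (0.075% of all tested probe sets did), and 9 had an unadjusted p under 0.05, or 15.3% against 12.6%. In ST vs AC 0 passed (0% of all), and 6 had an unadjusted p under 0.05, or 10.2% against 9.82%. For the mean of LT and ST against AC 0 passed (0.03% of all), and 8 had an unadjusted p under 0.05, or 13.6% against 10.5%. By the study's own kind of test, analysis of variance followed by LSD at an unadjusted p of 0.05, LT vs AC had 5 members (8.47%, against 9.11% of all tested probe sets), ST vs AC had 5 (8.47%, against 6.09%) and the mean of both vs AC had 4 (6.78%, against 6.98%). The median member differed by 0.016 in LT and -0.008 in ST, and the median half-width of the 95% interval was 0.12 in each.

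The template rule of the study's methods, run on limma's unadjusted p-values, asks for an F test, a difference between AC and YC, and an opposite difference of ST or LT from AC, each at a p of at most 0.05. Its first part was met by 20 members, or 33.9% against 18.6% of all tested probe sets, and the whole rule by 9, or 15.3% against 9.15%. The 9 were Mgst2, Txn1, Hmox1, Gsta4 (probe set 10911797) and Sod3, higher in AC, and Gpx7, Gstm3, Gstm6l and Txndc2, lower in AC. All the steps share the AC arrays, so a chance deviation of AC enters with opposite signs. Without the 4 choroid-rich arrays 4 of 59 members met it, and 830 of all 13339 tested probe sets did, against 1220 with all arrays.

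**Figure D5:**
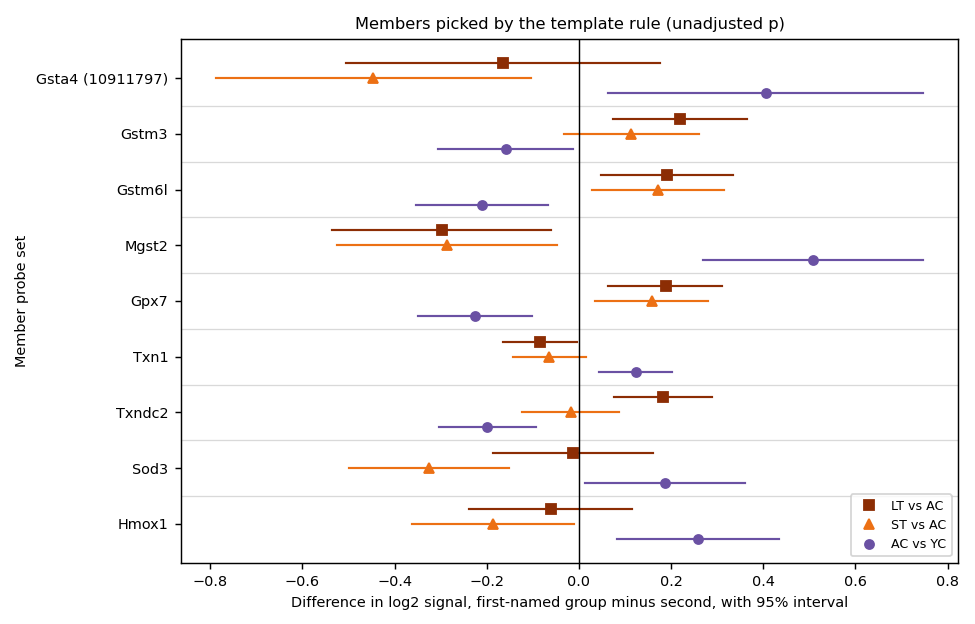
Differences in log2 signal (horizontal axis, first-named group minus the second, with 95% interval from limma) for LT vs AC, ST vs AC and AC vs YC, for the 9 member probe sets that met the template rule. Each AC vs YC point lies opposite to at least 1 of the others because the rule asks for it, and none of the LT or ST differences passed an adjusted p of 0.05.

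In LT and ST vs AC, 8 of the 9 had the same sign, Txndc2 being the exception. The rule selects on these differences and both subtract the same AC arrays, so agreement in sign is partly built in. It was not tested. Gpx7 gave 156 to 190 (median 168.5) on LT arrays, 159 to 182 (median 164.5) on ST arrays and 165, 135, 139, 171 and 140 on AC arrays 1 to 5, so that all 12 LT and ST arrays lay above AC replicates 2, 3 and 5. It was 0.19 higher in LT than in AC (95% interval 0.064 to 0.31, adjusted p = 0.19) and 0.16 in ST (95% interval 0.034 to 0.28, adjusted p = 0.42). Mgst2 was -0.30 from AC in LT (95% interval -0.54 to -0.06, adjusted p = 0.28) and -0.29 in ST (95% interval -0.52 to -0.048, adjusted p = 0.44), with overlapping arrays in both. Gstm6l was 0.19 from AC in LT (adjusted p = 0.24) and 0.17 in ST (adjusted p = 0.44). Gstm3 was 0.22 from AC in LT (adjusted p = 0.19) and 0.11 in ST (adjusted p = 0.62).

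Sod3 gave 1293 to 1741 (median 1420) on LT arrays, 1091 to 1270 (median 1198) on ST arrays and 1218, 1377, 1645, 1815 and 1425 on AC arrays 1 to 5. It was -0.33 from AC in ST (95% interval -0.50 to -0.15, adjusted p = 0.24) and -0.013 in LT (adjusted p = 0.96). Without the 4 choroid-rich arrays the ST difference was -0.18 (adjusted p = 0.60), whereas without AC replicate 1 it was -0.40 and passed (adjusted p = 0.032). That was the single array whose omission brought a member call in ST vs AC. Its omission also raised the ST vs AC calls over all tested probe sets from 0 to 65 (0.487%), so the shift was not particular to Sod3. Gsta4 at probe set 10911797 gave 148 to 194 on ST arrays and 196 to 354 on AC arrays, the 1 member (1.69%, against 0.51% of all tested probe sets) whose ST and AC arrays did not overlap. Its difference of -0.45 (95% interval -0.79 to -0.11, adjusted p = 0.40) was -0.22 (adjusted p = 0.61) without the 4 arrays. No member's LT and AC arrays were free of overlap (1.03% of all tested probe sets were). Txndc2 was 0.18 from AC in LT (95% interval 0.077 to 0.29, adjusted p = 0.16) and -0.017 in ST (adjusted p = 0.95). Hmox1 was -0.061 from AC in LT (adjusted p = 0.79) and -0.19 in ST (adjusted p = 0.49), and for Txn1 these were -0.084 (adjusted p = 0.37) and -0.064 (adjusted p = 0.61).

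The LT and ST arrays were also compared directly. Exposure time, injection age and Fkbp1b signal (843 to 1217 on LT and 427 to 881 on ST arrays) differ together between them. LT also holds choroid-rich arrays and ST none. An effect of exposure time therefore cannot be separated here. In LT vs ST 0 of 59 members passed by limma (0.0075% of all did), 8 had an unadjusted p under 0.05, or 13.6% against 12.4%, and the methods' analysis gave 5 (8.47%, against 8.19%). The arrays of LT and ST did not overlap for Sod3 and Txnl4b, or 3.39% against 1.5%. Sod3 was 0.31 higher in LT (95% interval 0.15 to 0.48, adjusted p = 0.14), with LT replicates 2 and 5, both choroid-rich, at 1597 and 1741 and the other LT arrays at 1293 to 1428. Txndc2 was 0.20 higher in LT (95% interval 0.099 to 0.30, adjusted p = 0.14). Txnl4b, despite its name, belongs to a family of splicing factors. It gave 335 to 339 on the 5 LT arrays with a value (1 was blank) and 348 to 375 on ST arrays. The difference was -0.13 (95% interval -0.23 to -0.025, adjusted p = 0.30). The blank may be an outlier that was removed, so whether all 6 LT arrays lay below the ST arrays is not known. Prdx4 and Gsta3 were 0.16 and 0.15 higher in LT (adjusted p = 0.26 and 0.36), Sod1, the cytosolic dismutase, 0.062 (adjusted p = 0.35), and Prdx3 was -0.10 (adjusted p = 0.32).

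Set against young rats, aged rats given FKBP1b differed in a few of these enzymes. In LT vs YC 3 members passed, or 5.08% against 1.03% of all tested probe sets: Mgst1 at 0.53 (SE 0.089, adjusted p = 0.0061), Gstp1 at 0.29 (SE 0.068, adjusted p = 0.044) and Prdx6 at 0.16 (SE 0.034, adjusted p = 0.027). In ST vs YC 3 passed, or 5.08% against 4.15%: Mgst1 at 0.36 (SE 0.089, adjusted p = 0.026), Gstp1 at 0.29 (SE 0.068, adjusted p = 0.019) and Txndc2 at -0.22 (SE 0.049, adjusted p = 0.015). Arrays of LT and YC did not overlap for 7 members (11.9%, against 3.33% of all), which were Gsta1, Gstm4, Gstp1, Mgst1, Prdx1 at probe set 10818184, Prdx6 and Sod1. Arrays of ST and YC did not overlap for 3 (5.08%, against 4.72%), which were Gstp1, Prdx6 and Txnip.

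Gstp1 passed against YC in both FKBP1b groups. Its signals were 1177 to 1479 (median 1257) on LT arrays, 1202 to 1398 (median 1287.5) on ST arrays, 1120, 1440, 1272, 1167 and 993 on AC arrays 1 to 5, and 1021 to 1103 (median 1046) on YC arrays. All 12 LT and ST arrays lay above all 6 YC arrays, and 4 of 5 AC arrays did too. LT differed from AC by 0.12 (95% interval -0.03 to 0.27, adjusted p = 0.50) and ST by 0.12 (95% interval -0.03 to 0.27, adjusted p = 0.61), and LT from ST by 0.001 (95% interval -0.14 to 0.14, adjusted p = 1). The call in LT vs YC was lost on leaving out any 1 of 15 arrays, with adjusted p up to 0.11, and in a fit lacking the 4 choroid-rich arrays (0.18), and that in ST vs YC in no leave-out. Mgst1 likewise passed against YC in both FKBP1b groups, and differed by 0.10 between LT and AC (95% interval -0.09 to 0.30, adjusted p = 0.65) and by -0.066 between ST and AC (95% interval -0.26 to 0.13, adjusted p = 0.87). Its call in LT vs YC held in all 23 leave-outs and in a fit lacking the 4 choroid-rich arrays, but not without LT replicate 1 as well, the array at 0.53 (adjusted p = 0.11), and that in ST vs YC was lost in 6 leave-outs, with adjusted p up to 0.067. Prdx6 in LT vs YC lost the call in 8 leave-outs, with adjusted p up to 0.070, without those 4 arrays (0.12), with the choroid plexus score as a covariate (0.14) and with the RNA integrity number, which ran lower in LT than in YC, as a covariate (0.057).

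Catalase and the intracellular dismutases passed in no comparison. Cat, which breaks down hydrogen peroxide in peroxisomes, gave 2207 to 2628 (median 2462) on LT arrays, 2238 to 2560 (median 2344.5) on ST arrays, 2299, 2489, 2366, 2248 and 2286 on AC arrays 1 to 5, and 2379 to 2486 (median 2436.5) on YC arrays. The groups overlapped, and the differences were 0.056 for LT vs AC (95% interval -0.025 to 0.14, adjusted p = 0.56), 0.021 for ST vs AC (95% interval -0.061 to 0.10, adjusted p = 0.91) and -0.057 for AC vs YC (95% interval -0.14 to 0.025, adjusted p = 0.37). Sod1 was 0.059 from YC in AC (95% interval 0.001 to 0.12, adjusted p = 0.17) and 0.097 in LT (adjusted p = 0.077). Sod2, the mitochondrial dismutase, was 0.039 from YC in AC (95% interval -0.05 to 0.13, adjusted p = 0.59) and -0.053 from AC in LT (adjusted p = 0.61).

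The members not yet described passed in none of the 3 comparisons of LT vs AC, ST vs AC and AC vs YC. Gpx2, Gpx3, the secreted peroxidase, and Gpx8, a peroxidase of the endoplasmic reticulum membrane, were -0.078, -0.058 and -0.015 from YC in AC. The mitochondrial thioredoxin Txn2 was 0.02, and the mitochondrial reductase Txnrd2 was -0.095. Among the 10 other probe sets with Txn symbols 5 were above 0 and 5 below, over a range of -0.20 to 0.14, with Txndc2 and Txnip at the ends. With array medians made equal the split was 4 above and 6 below. The theta-class Gstt1 and Gstt2 were -0.071 and 0.10, and Prdx5, a peroxiredoxin of mitochondria and peroxisomes, was 0.01 (95% interval -0.053 to 0.073, adjusted p = 0.86). In the mu class Gstm7 was -0.18 (adjusted p = 0.067), Gstm6 -0.082 and Gstm5 0.057. Txnl1, a thioredoxin bound to the proteasome, was -0.062 from YC in AC (adjusted p = 0.32).

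Genes next to these enzymes in the same pathways, taken from lists written for this purpose, were called in 6 lists between AC and YC and in none between LT or ST and AC. Of 19 tested genes for glutathione supply and breakdown, 2 were higher in AC than YC (the exporter Abcc4 at 0.25 and the 5-oxoprolinase Oplah at 0.18) and 1 lower (Ggt7 at -0.14). Of 11 for NADPH supply, the malic enzyme Me2 was higher (0.15) and the mitochondrial NAD kinase Nadk2 lower (-0.11). Of 24 for other thiol and aldehyde defenses, 3 were higher, the glutathione-dependent prostaglandin D synthase Hpgds (0.38), the glyoxalase Glo1 (0.15) and the selenoprotein Selenom (0.18), and none lower. Of 28 partners, regulators and further targets of Nfe2l2, 1 was higher, the ferritin light chain Ftl1 (0.11), and none lower. Of 4 metallothioneins Mt1 (0.44) and Mt2A (0.23) were higher. Of 12 sources of superoxide or peroxide, Ncf1 (0.47) and Rac2 (0.49), parts of the phagocyte oxidase, were higher and Duox2 (-0.27) lower. All these values are AC minus YC in log2 signal at an adjusted p under 0.05 by limma, and the medians of the 6 lists ran from 0.007 to 0.17 against -0.006 over all tested probe sets. Of all tested probe sets 5.56% were called higher in AC and 4.18% lower. For these listed genes, values without the choroid-rich arrays or without AC replicate 5 are not given here.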

How the data were processed

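Dorsal hippocampal RNA of 23 rats was measured on Rat Gene 1.0 ST arrays, 1 per animal (6 LT, 6 ST, 5 AC, 6 YC). The authors deposited unlogged RMA signal intensities for each probe set, summarized, per the submitters' processing notes, with Partek and RMA, whose versions were not given in the sources used here. RMA corrects background, normalizes quantiles over the arrays and summarizes the probes of each set, and a probe set reads only the transcripts its probes match. Precision is limited by the number of arrays, with array medians of 134 to 141. Genes were named from the platform annotation, with 15307 probe sets of 1 symbol and 323 of several, which were left out.

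Signals were put on the log2 scale and fitted with limma 3.58.1 in R 4.3.3, with 1 mean per group and empirical Bayes moderation, for 13339 probe sets of 1 symbol whose signal reached 40 on 4 or more arrays. Blank cells (204 of these probe sets had any) were treated as missing, and 1 of them belonged to a member. P-values were two-sided and adjusted by Benjamini-Hochberg over all tested probe sets, and a call is an adjusted p under 0.05. Analysis of variance followed by LSD, as in the study's methods, and its template rule were run on the same values. The script was tested on simulated data. The members named in detail are those called in a comparison, those of smallest p where fewer than 3 were called, the highest mean signal of each role, those with several probe sets and those meeting the template rule, while others are named in passing. The members and lists were chosen with earlier results of these data known. Alternatives were 15 settings (scaling, signal filter, covariates, array sets and tests) and leaving out each of the 23 arrays.

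Same-numbered arrays did not deviate together (33 pairs, r from -0.378 to 0.199, median 0), so the numbers were not taken to pair animals.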

Additional observations from a re-analysis of the deposited data

Results flagged for a closer look

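In groups of 4 to 10 arrays, 8 of the 124 member groups examined (6.45%) held 1 array whose gap to its nearest neighbour was large for the range of the group, where chance gives about 1 in 20. Prdx3 gave 586 on LT replicate 2, against 526 to 548 on the other LT arrays, and Mgst1 gave 454 on LT replicate 6, against 518 to 547. Txnl4b gave 339 on LT replicate 2, against 335 to 336 on the other LT arrays with a value, and 348 on ST replicate 5, against 368 to 375 on the other ST arrays. In AC, Txnl1 gave 1080 on replicate 4, against 911 to 946, and Txndc2 gave 255 on replicate 5, against 215 to 224. In YC, Gsta4 at probe set 10911797 gave 136 on replicate 4, against 174 to 196, and Txn1 gave 1347 on replicate 2, against 1452 to 1510. Of these, the arrays LT replicate 2 and AC replicate 4 had choroid plexus scores of 2.62 and 3.15, and AC replicate 5 had the highest microglia score, 0.96; their part was not tested.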

How the results depend on the processing

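None of the 14 called differences of single members changed sign under any alternative run. Among uncalled ones some did: without the arrays with a choroid plexus score over 1, Gstm2 in AC vs YC was -0.18 (0.20 over all arrays) and Prdx4 -0.081 (0.028), and in ST vs AC Gpx1 was 0.044 (-0.13) and Gsta1 0.12 (-0.052). Shares in brackets are of members against all tested probe sets. Members called in AC vs YC (8) numbered 4 with the compared groups fitted alone (6.78% against 2.89%). Of these 4, Mgst2 and Prdx6 were among the 8, and Gstm6l and Nfe2l2 were gained. Gpx7, Mgst1, both Prdx1 probe sets, Txn1 and Txndc2 were lost. The AC vs YC calls numbered 16 by the methods' LSD at an unadjusted p (27.1% against 18.3%). Without the arrays with a choroid plexus score over 0.5 they numbered 3 (5.08% against 2.89%). The number was also 3 without those over 1, a limit chosen after seeing the data (5.08% against 2.98%). Both of these fits had fewer AC arrays. For ST vs YC (3) the counts were 9 with the choroid plexus covariate (15.3% against 5.25%) and 5 without arrays over 1 (8.47% against 4.39%). With groups alone the count was 7 (11.9% against 8.67%). By LSD it was 6, a smaller share than that of all (10.2% against 14.9%). For LT vs YC (3) the counts were 1 with the covariate (1.69% against 0.225%) and 0 without arrays over 0.5 (0% against 0.187%). With groups alone the count was 5 (8.47% against 2.68%), and by LSD it was 11 (18.6% against 9.77%). Members called in ST vs AC, LT vs AC, their mean vs AC and LT vs ST (0 each) numbered 5, 5, 4 and 5 by LSD. The F test (7) gave 4 with the replicate block (6.78% against 3.87%) and 1 without arrays over 0.5 (1.69% against 2.37%). That 1 was Gsta1, and all 7 were lost. Without arrays over 1 the F test gave 2 (3.39% against 2.54%), Gsta1 and Mgst1, of which only Mgst1 was among the 7. The methods' analysis of variance gave 3 after Benjamini-Hochberg (5.08% against 4.54%) and 17 unadjusted (28.8% against 24.2%). The template rule (9) gave 4 without arrays over 0.5 and 4 without those over 1, where its count over all tested probe sets, given above, was lower too. Where not stated, the cause was not tested.

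With the replicate block, 8 members were called in AC vs YC (13.6%, against 8.76% of all tested probe sets). None was called in ST vs AC (0% of all) or in LT vs AC (0.0225% of all). In ST vs YC 3 were called (5.08% against 3.46%) and in LT vs YC 2 (3.39% against 0.652%). Leaving out 1 array at a time gave 6 to 13 calls in AC vs YC (6 without AC replicate 4), 0 to 1 in ST vs AC, 0 in LT vs AC, the mean of both and LT vs ST, 2 to 5 in ST vs YC, 1 to 6 in LT vs YC, 3 to 9 in the F test and 5 to 12 in the template rule. Calls over all tested probe sets moved too in these leave-outs, from 796 to 1868 in AC vs YC and from 289 to 1012 in ST vs YC. They ran from 48 to 378 in LT vs YC, from 383 to 1261 in the F test and from 953 to 1806 in the template rule. Equal array medians shifted the median of all genes in AC vs YC by -0.031 and gave 11 calls (18.6% of members against 12.8% of all).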
